A study of Mus musculus with 10 samples.

Results

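Slc6a4, Htr2c and Gata3 are 3 genes of the serotonin system, encoding a transporter, a receptor and a transcription factor, read here in the midbrain of arthritic and control mice. They were chosen by name, and their probes are those to which the platform's probe-to-gene table gives 1 of these symbols and no other. This found 1 probe for each, so 3 of the 8726 genes with such a probe, on arrays of 10080 probes. None of the 3 differed between the groups beyond the spread of the replicates.

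RNA came from the midbrain of male DBA/1 mice, a strain prone to collagen-induced arthritis, and was hybridised to 2-colour oligonucleotide arrays with Cy3 on one RNA and Cy5 on the other. Mice of the collagen group, 8 weeks old, had an intradermal injection of 100 ul of type II collagen together with 100 ul of complete Freund's adjuvant. Control mice of the same strain, sex and age had 200 ul of that adjuvant alone. On day 24 LPS, an endotoxin, was injected in collagen and control mice alike, so neither group was untreated. Death is labelled 31 with an unclear unit, and the sources used here do not give the number of animals behind an RNA. Each of the 10 arrays carried both RNAs. They form 5 dye-swap pairs, in which collagen RNA was in Cy5 on one array and in Cy3 on the other, and these belong to 3 replicate numbers: 2 pairs each for replicates 1 and 2, and 1 pair for replicate 3. Arrays with the same number were taken as repeat hybridisations, so n = 3.

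Serotonin is made from tryptophan in neurons of the raphe nuclei, the largest of which lies in the midbrain, and these neurons project to most of the brain and spinal cord, where they act on mood, sleep, feeding and pain. Slc6a4 encodes the transporter that takes serotonin back into the neuron that released it, and it is the target of the antidepressants that block reuptake. Htr2c encodes a receptor coupled to Gq proteins, whose transcript is edited by adenosine deaminases and is abundant in the choroid plexus. Gata3 encodes a zinc-finger transcription factor that acts in the development of serotonin neurons and of GABA neurons of the midbrain, and in T cells it directs the helper type 2 programme. In RNA of whole tissue, fewer cells of a type and less RNA per cell cannot be told apart.

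All values are log2 ratios of collagen over control RNA, so 0 means equal signal and a negative value means less in the arthritic mice. The direction is likely rather than stated: channel A of the scanner files was read as Cy3, the first dye in the labels, and if A were Cy5 all signs would be opposite. The arrays gave a ratio for 4496 to 8425 of the 10080 probes, and 4139 probes had one in all 3 replicates and were tested. With limma, 0 of these passed an adjusted p under 0.05 (0% called), while 163 (3.94%) had an unadjusted p under 0.05. Of the members, 0 of 3 passed either way. A p here sets the mean against the spread of the 3 replicates, which limma draws toward that of all tested probes.

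The genes lie on different chromosomes (RefSeq, build GRCm38.p6). Slc6a4 is at chr11:76998597-77032343, Htr2c at chrX:146962464-147197277 and Gata3 at chr2:9857078-9887953. The letters of the probes and their place in the transcript were not analysed here. Because the product of Gata3 reads DNA at GATA-type sites, the 250 bases before the listed start of each gene are shown, with matches in capitals. The letters searched on both strands were AGATAA, then the form with a final G, AGATAG, and the forms of each with a first T, which are TGATAA for the one and for the other TGATAG. The windows are chr11:76998347-76998596 on the plus strand for Slc6a4, chrX:146962263-146962512 on the plus strand for Htr2c and chr2:9878601-9878850 on the minus strand for Gata3.
Slc6a4: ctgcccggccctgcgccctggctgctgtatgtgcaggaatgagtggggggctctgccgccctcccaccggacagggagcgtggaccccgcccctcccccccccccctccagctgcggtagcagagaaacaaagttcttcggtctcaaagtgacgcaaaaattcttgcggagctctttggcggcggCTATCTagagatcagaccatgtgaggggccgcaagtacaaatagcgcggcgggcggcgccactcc
Htr2c: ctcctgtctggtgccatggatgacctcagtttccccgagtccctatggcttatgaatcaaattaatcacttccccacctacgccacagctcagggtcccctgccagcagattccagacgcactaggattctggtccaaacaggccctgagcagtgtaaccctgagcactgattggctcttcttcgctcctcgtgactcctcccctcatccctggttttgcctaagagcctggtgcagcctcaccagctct
Gata3: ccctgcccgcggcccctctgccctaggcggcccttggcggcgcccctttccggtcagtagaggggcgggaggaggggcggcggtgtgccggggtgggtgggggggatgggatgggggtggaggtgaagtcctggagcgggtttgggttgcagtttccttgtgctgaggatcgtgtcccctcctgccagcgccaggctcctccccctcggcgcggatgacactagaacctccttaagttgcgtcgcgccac
The window of Slc6a4 holds 1 match, CTATCT, the reverse complement of AGATAG, whose first base is 65 bases before the start. The windows of Htr2c and Gata3 hold 0 matches. Of 32851 windows of the same length, 26.5% hold at least 1 match. The match describes these letters, and binding there was not tested. The windows are rich in G and C, with 64.8% in Slc6a4, 55.6% in Htr2c and 70.0% in Gata3, where the median window has 52.4%. CpG pairs number 18, 5 and 19 in the same order. All 250 bases of the Gata3 window and 49 of the Htr2c window fall inside the annotated span of the gene, which starts further upstream than the listed start.

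Slc6a4, the serotonin transporter, stood at a mean of 0.043 ± 0.23 (SD, n = 3). With collagen RNA in Cy5, its ratio was -0.30 and 0.11 on the arrays of replicate 1, -0.12 and 0.40 on those of replicate 2 and 0.37 on that of replicate 3. With collagen RNA in Cy3, it was -0.14 on the first array of replicate 1, 0.0084 and 0.24 on those of replicate 2 and 0.064 on that of replicate 3. The remaining array of replicate 1 gave no ratio, so 9 of 10 arrays and 4 of 5 pairs were measured. Its spot has an intensity and a background of 0 in channel B on all 3 scans, and in channel A on scans 2 and 3. These zeros do not show a lack of control RNA. The ratio was above 0 on 6 of the 9 arrays. The pairs of replicate 2 stood at -0.055 and 0.32 and differed by 0.37, where the median tested probe differed by 0.15. Averaged over pairs, replicate 1 stood at -0.22, from its first pair alone, replicate 2 at 0.13 and replicate 3 at 0.22. Replicate 1 thus lay on the other side of 0 from replicates 2 and 3, and the mean was 0.17 without replicate 1, -0.0010 without replicate 2 and -0.043 without replicate 3. The fit gave a 95% interval of -0.22 to 0.31 (limma adjusted p = 0.935), which is a ratio of 0.857 to 1.24 around 1.03. Of the members Slc6a4 had the widest spread, with an SD at the 75.2nd percentile of the tested probes.

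Htr2c, the serotonin receptor, stood at 0.032 ± 0.084 (SD, n = 3). With collagen RNA in Cy5, its ratio was -0.015 and 0.13 in replicate 1, -0.14 and -0.0089 in replicate 2 and -0.077 in replicate 3. With collagen RNA in Cy3, it was -0.10 and -0.13 in replicate 1, 0.40 and 0.25 in replicate 2 and 0.070 in replicate 3. The ratio lay above 0 on 4 of 10 arrays, and the values of the orientations overlapped. Replicate 1 stood at -0.029, replicate 2 at 0.13 and replicate 3 at -0.0032, so the mean above 0 came from replicate 2, and without it the mean was -0.016. The 95% interval was -0.16 to 0.23 (limma adjusted p = 0.935), a ratio of 0.894 to 1.17. The 2 dye-swap pairs of replicate 1 differed by 0.061 and those of replicate 2 by 0.011, where the median tested probe differed by 0.19 and 0.15.

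Gata3, the transcription factor, stood at -0.043 ± 0.031 (SD, n = 3). With collagen RNA in Cy5, its ratio was -0.17 and -0.20 in replicate 1, -0.77 and -0.18 in replicate 2 and -0.090 in replicate 3. With collagen RNA in Cy3, it was 0.43 and -0.17 in replicate 1, 0.48 and 0.17 in replicate 2 and 0.048 in replicate 3. All 5 arrays of the first orientation were below 0 and 4 of 5 of the second above it, so the orientations pulled the ratio apart and their mean lay near 0. The replicates stood at -0.029, -0.079 and -0.021, all below 0, as were 20.8% of the tested probes, while 8.92% were above 0 in all 3. Over the mean alone, 59.2% of the tested probes lay below 0, with Gata3, and 40.8% above it, with Htr2c and Slc6a4. The 95% interval was -0.23 to 0.14 (limma adjusted p = 0.909), a ratio of 0.855 to 1.10. The SD over the replicates was at the 4.11th percentile of the tested probes, while the 2 pairs of replicate 1 stood at 0.13 and -0.18 and differed by 0.31. The pairs within replicate 1 thus lay further apart for Gata3 than the means of the 3 replicates did.

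**Figure D1:**
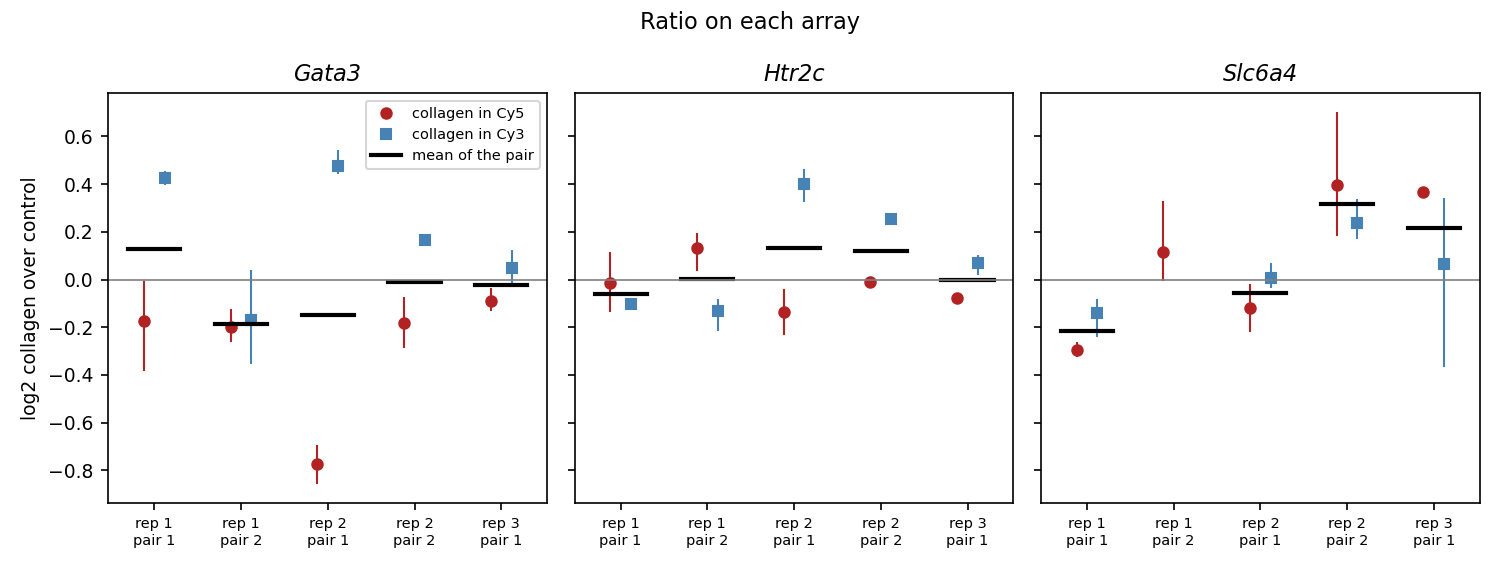
Log2 collagen over control (vertical axis) of Gata3, Htr2c and Slc6a4 on each array, by replicate and dye-swap pair (horizontal axis). Points are arrays by the dye of the collagen RNA, thin lines run from the lowest to the highest scan of an array and black bars are means of pairs. Gata3 lies below 0 on all 5 arrays with collagen RNA in Cy5, and the second pair of replicate 1 has no bar for Slc6a4 because 1 of its arrays gave no ratio.

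The ends of the intervals furthest from 0 were compared next. They lay at 1.17-fold for Gata3 and Htr2c and at 1.24-fold for Slc6a4. These intervals rest on the spread of the replicate means, drawn by limma toward that of all tested probes, and are no firm bounds. In channel A, the background-corrected signal of Slc6a4 averaged 0.560 and 0.594 times the background over the scans of the replicate 3 arrays. An interval within a 1.5-fold change was found for 93.2% of the tested probes, so the members share this with most probes. The distance from the mean to either end of the interval had a median of 0.22 over the tested probes, and by that measure the intervals of Gata3 and Htr2c were narrower than and that of Slc6a4 wider. In size, the mean ratios were at the 29.6th percentile of the tested probes for Gata3, the 22.3rd for Htr2c and the 29.5th for Slc6a4, counted from the smallest. The tested probes had a median ratio of -0.025. The intervals of the 3 members overlapped, so their order, Slc6a4 above Htr2c above Gata3, was within the error.

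**Figure D2:**
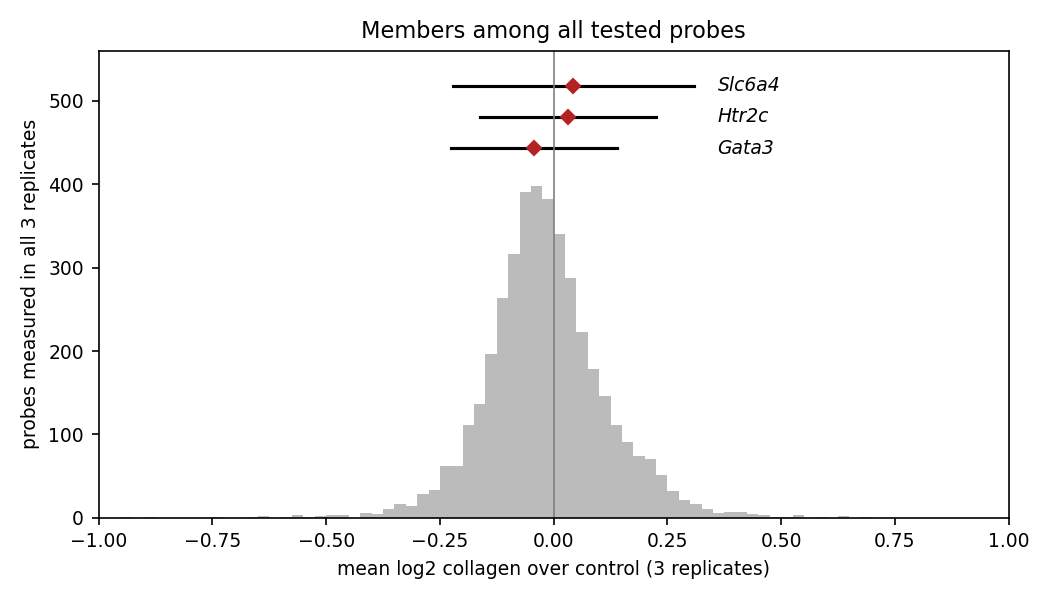
Number of probes (vertical axis) by mean log2 collagen over control (horizontal axis) for the 4139 probes measured in all 3 replicates. Diamonds are the members' means with lines for their 95% intervals from limma, placed above the bars with no height scale. The means of -0.043, 0.032 and 0.043 lie in the centre of the distribution and each line crosses 0.

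The spots differed in brightness, which depends on the probe as well as on the RNA and so ranks no gene against another. Htr2c was brightest, at a median percentile of 94.8 among all spots of an array that gave a ratio, with Gata3 at 84.0 and Slc6a4 at 50.2. The background-corrected intensity of Htr2c was 1.72 to 27.4 times the spot background in the channel of the control RNA. In that of the collagen RNA it was 2.66 to 22.4 times. For Gata3 these ranges were 1.28 to 18.8 and 0.925 to 13.2. For Slc6a4 they were 0.560 to 4.15 and 0.594 to 4.90. A value under 1 is a corrected signal smaller than the background, and does not by itself mean a spot without signal. As means over the scans of an array, as in these ranges, such values were in channel A on both replicate 3 arrays for Slc6a4, and on 1 of them for Gata3. Channel A held control RNA on one of these arrays and collagen RNA on the other. On scan 1, Slc6a4 was also under 1 in both channels of the second-pair array of replicate 1 with collagen in Cy5. Its values there were 0.877 and 0.657 for collagen and control RNA. The same held on scan 1 of both second-pair arrays of replicate 2. They gave 0.922 and 0.913 with collagen in Cy5, and 0.922 and 0.849 with it in Cy3.

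The repeat scans of an array showed the same difference between the genes. Between the lowest and the highest scan the ratio moved by a median of 0.11 for Htr2c, 0.14 for Gata3 and 0.17 for Slc6a4. The widest range of Slc6a4 was 0.71, on the replicate 3 array that had collagen in Cy3, where the scans gave values from -0.37 to 0.34. All 29 scans were used for Htr2c and Gata3 and 26 for Slc6a4. Among the scans used, some pixels were saturated in 3 of Htr2c, 1 of Gata3 and 0 of Slc6a4.

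**Figure D3:**
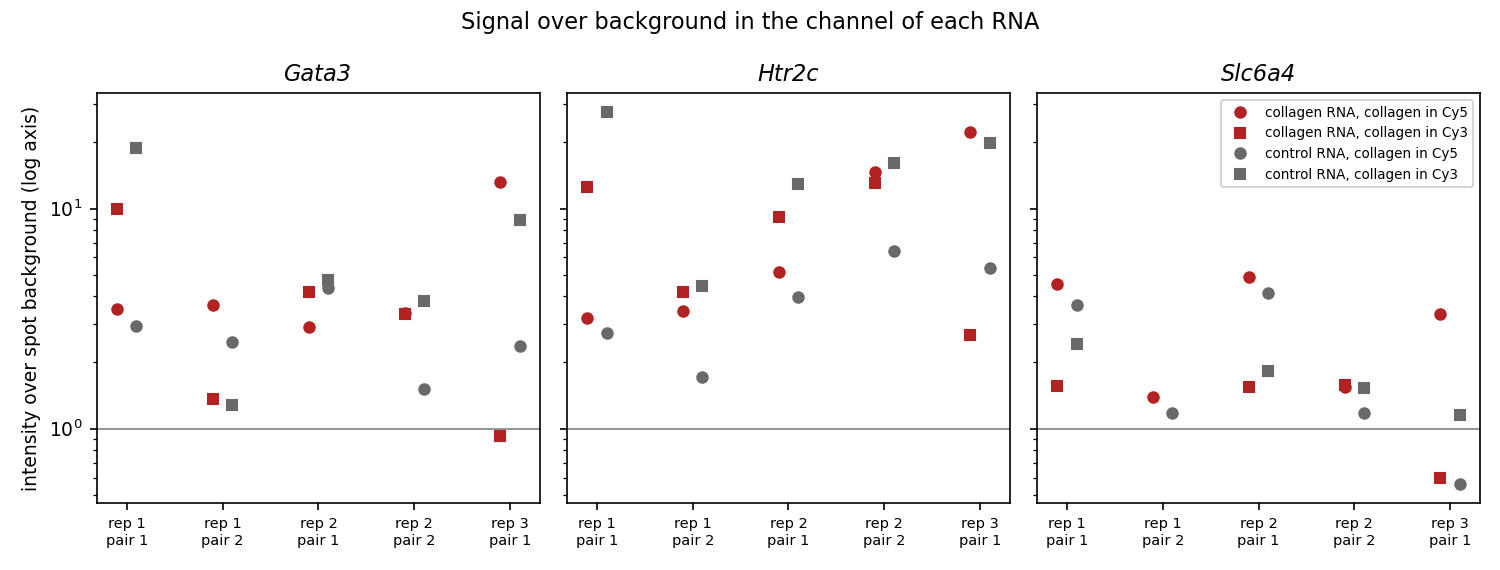
Background-corrected spot intensity over spot background (vertical axis, log scale) for Gata3, Htr2c and Slc6a4, by replicate and dye-swap pair (horizontal axis). Each point is the mean over the scans of an array in the channel of the collagen RNA (red) or the control RNA (grey), with circles where collagen RNA was in Cy5 and squares where it was in Cy3, and the line marks 1. Htr2c lies above the line on all arrays, Slc6a4 below it in 1 channel of each replicate 3 array and Gata3 in 1 channel of 1 such array.

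The channels themselves were compared over both dye orientations, as log2 of channel B over A. Of the 4139 tested probes, 55 (1.33%) passed limma for such a difference, and 0 of the 3 members were among them. Gata3 was brighter in channel A on 9 of 10 arrays, with -0.21 ± 0.17 (SD, n = 3) and a 95% interval of -0.46 to 0.046 (limma adjusted p = 0.340). Its replicates stood at -0.16, -0.40 and -0.069. Htr2c stood at -0.062 ± 0.14 (limma adjusted p = 0.768) and Slc6a4 at 0.027 ± 0.12 (limma adjusted p = 0.903). This difference cancels in the mean of a dye-swap pair, but not in either orientation alone. With the arrays of collagen RNA in Cy5 alone, a setting chosen after the data were seen, Gata3 stood at -0.25, and with those of collagen RNA in Cy3 alone at 0.17.

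The other genes of serotonin synthesis, transport, reception and of the serotonin neuron's identity were counted next, in a list of 43 genes with the members. Of these, 29 have a probe with a single symbol and 14 were measured in all 3 replicates, 7 of them above 0 and 7 below. With limma, 0 of the 14 passed in either direction at an adjusted p and 0 at an unadjusted p under 0.05, and their median was 0.0088 beside -0.025 over all tested probes. Tph1 has a probe but no replicate value. Tph2, the enzyme that limits serotonin synthesis in neurons, and Fev, a transcription factor that marks these neurons, have no probe with a single symbol. Of 8 markers of serotonin neurons, Slc6a4, Ddc and Lmx1b alone gave a ratio in all 3 replicates. A ratio needs only intensities over 0 without a bad flag, and Ddc is also a marker of dopamine neurons. These ratios therefore cannot show whether the RNA held that of serotonin neurons.

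All 3 measured genes of synthesis and its cofactor stood above 0, none past the test. Ddc, the decarboxylase that makes serotonin from its precursor and also makes dopamine, was 0.010, 0.27 and 0.26 in replicates 1, 2 and 3, with a mean of 0.18 ± 0.15 (SD, n = 3). Spr, sepiapterin reductase, which makes the cofactor tetrahydrobiopterin, was 0.018, 0.011 and 0.56. Its mean of 0.20 ± 0.32 came from replicate 3. Qdpr, which recycles the cofactor, was 0.17, 0.17 and -0.060, with a mean of 0.094 ± 0.13. The adjusted p of limma was 0.827 for Ddc and Spr and 0.844 for Qdpr.

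Among the receptors, 11 of 14 have a probe, and Htr2c and Htr1d alone were measured in all replicates. Htr1d, a receptor of the Gi-coupled class that serves as an autoreceptor on serotonin endings, was -0.18, -0.21 and 0.28, with a mean of -0.039 ± 0.28 (SD, n = 3). Its replicates lay on both sides of 0 and were further apart than those of Htr2c. A further 6 receptors were measured in 1 or 2 replicates. In replicate 2, Htr1a, the main autoreceptor on the cell bodies, stood at -0.050, Htr5a at 0.035 and Htr5b at 0.20. In replicate 1, Htr6 stood at 0.15 and Htr4 at -0.88. Htr7 stood at -0.11 in replicate 1 and 0.083 in replicate 3. These 6 lay on both sides of 0, with too few values for a test.

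Of the transcription factors of serotonin neurons, 5 of 10 were measured in all replicates, 2 above 0 and 3 below. Lmx1b, which the neurons need to form and persist, was -0.0029, 0.075 and -0.21, with a mean of -0.047 ± 0.15 (SD, n = 3). Nkx2-2, which acts in their progenitors, was -0.0086, 0.0080 and 0.18, with a mean of 0.060 ± 0.10. En1, an engrailed factor of midbrain and hindbrain neurons, was -0.16, 0.034 and 0.77. Its mean of 0.21 ± 0.49 came from replicate 3. En2, the related factor, was -0.042, -0.32 and 0.32, with a mean of -0.014 ± 0.32. Against these, the replicates of Gata3 lay closer together than those of the other 4 factors.

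Both measured partners of the receptors stood below 0. S100a10, an adaptor that binds Htr1b and Htr4 and carries them to the membrane, had a mean of -0.084 ± 0.12 (SD, n = 3), and Mpdz, a scaffold that binds Htr2c, one of -0.11 ± 0.24. Slc7a5, a subunit of the transporter that carries tryptophan across the blood-brain barrier, had a mean of -0.028 ± 0.14. Ido1 and Tdo2, which divert tryptophan from serotonin, and Adarb1, an enzyme that edits Htr2c transcripts, have probes but no replicate value. In replicate 3 the median of the 14 genes was 0.17, beside -0.036 and 0.022 in replicates 1 and 2, while the medians over all tested probes were -0.019, -0.038 and -0.024. Genes above 0 numbered 3 of 14 in replicate 1, 9 in replicate 2 and 9 in replicate 3, where 37.4%, 42.1% and 46.8% of all tested probes were above 0.

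**Figure D4:**
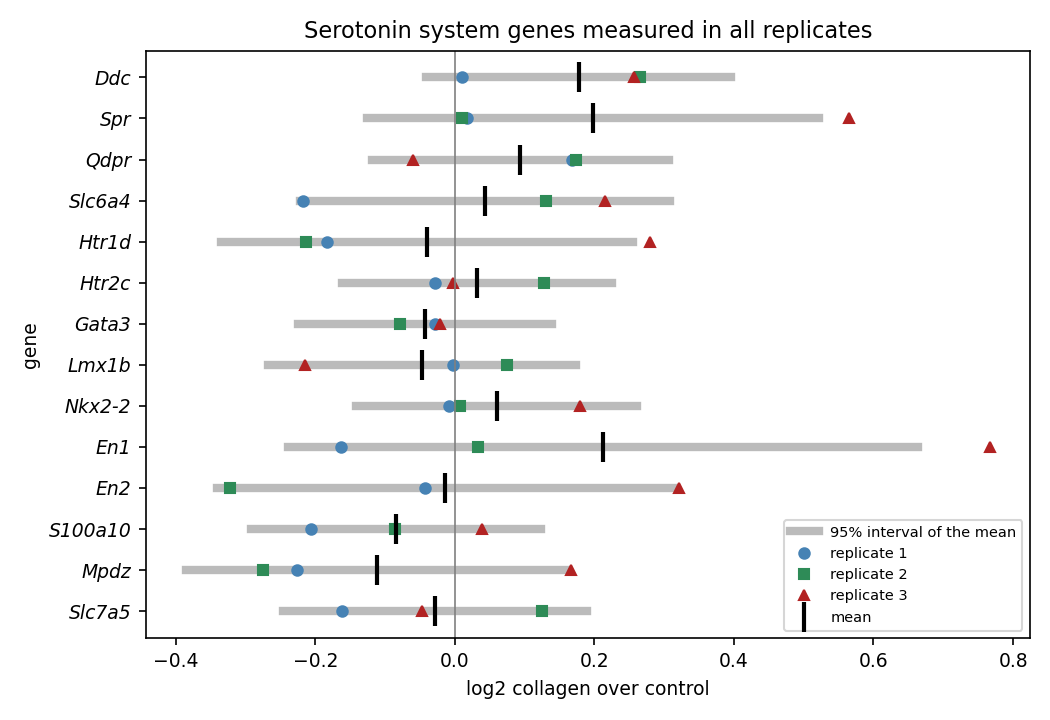
Log2 collagen over control (horizontal axis) of the 14 serotonin system genes measured in all replicates (vertical axis), by replicate, with the mean as a black tick and its 95% interval from limma as a grey bar. Every bar crosses 0, and Spr and En1 have 1 replicate, the third, far above the others.

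Cells other than serotonin neurons also express the members, so their markers were read beside them. For Gata3, 4 of 8 markers of midbrain GABA neurons were measured, Gata3 among them, 1 above 0 and 3 below. Gad1 and Gad2, the enzymes that make GABA, stood at -0.049 ± 0.24 and 0.11 ± 0.075 (SD, n = 3), and Gad2 was above 0 in all 3 replicates. Slc32a1, the vesicular GABA transporter, was below 0 in all 3, at -0.27 ± 0.029, with an unadjusted p of limma under 0.05 and an adjusted p of 0.827. Of 9 T-cell markers, Cd5 alone was measured in all replicates, at -0.13 ± 0.050. Il7r stood at 0.43 in replicate 1 alone and Cd3e at -0.023 in replicate 2 alone. Cd3g had no replicate value and Cd3d gave a ratio on 0 arrays. For Htr2c, the choroid plexus genes Kl and Igf2, 2 of 8 markers, stood at 0.14 ± 0.40 and -0.25 ± 0.29. Igf2 stood below 0 in replicates 1 and 3 and Kl above it in replicate 3, where Htr2c was -0.0032. For Slc6a4, whose product platelets carry, 0 of 7 red-cell and platelet markers were measured in all replicates. Of 8 markers of dopamine neurons, 4 were measured, Th at 0.35 ± 0.47 and Ddc above 0, and Nr4a2 at -0.11 ± 0.50 and Pitx3 at -0.088 ± 0.047 below, with a median of 0.045. The part of these cells in the members' values was not tested.

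The named genes with the most similar values over the arrays were found by the mean absolute difference in log2 ratio. For Gata3 they were Pitx3, a transcription factor of dopamine neurons, at 0.11, Btbd9 and Tmem98, both at 0.13, over 10 arrays and 1686 candidates with a median of 0.41. For Htr2c they were Npm1, a nucleolar protein, at 0.068, Ndfip2 at 0.072 and Pcbd1 at 0.077, where the median was 0.30. For Slc6a4 they were Pdgfb, a growth factor, at 0.11, and Cdc16 and Igfbp7, both at 0.13, over 9 arrays and 1899 candidates with a median of 0.32. Cdc16 is in the same print block as Slc6a4, 1 place away in the probe order, and Pitx3 in the same block as Gata3, 19 places away. Shared arrays, scans and place on the slide enter these differences, and their part was not tested.

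**Figure D5:**
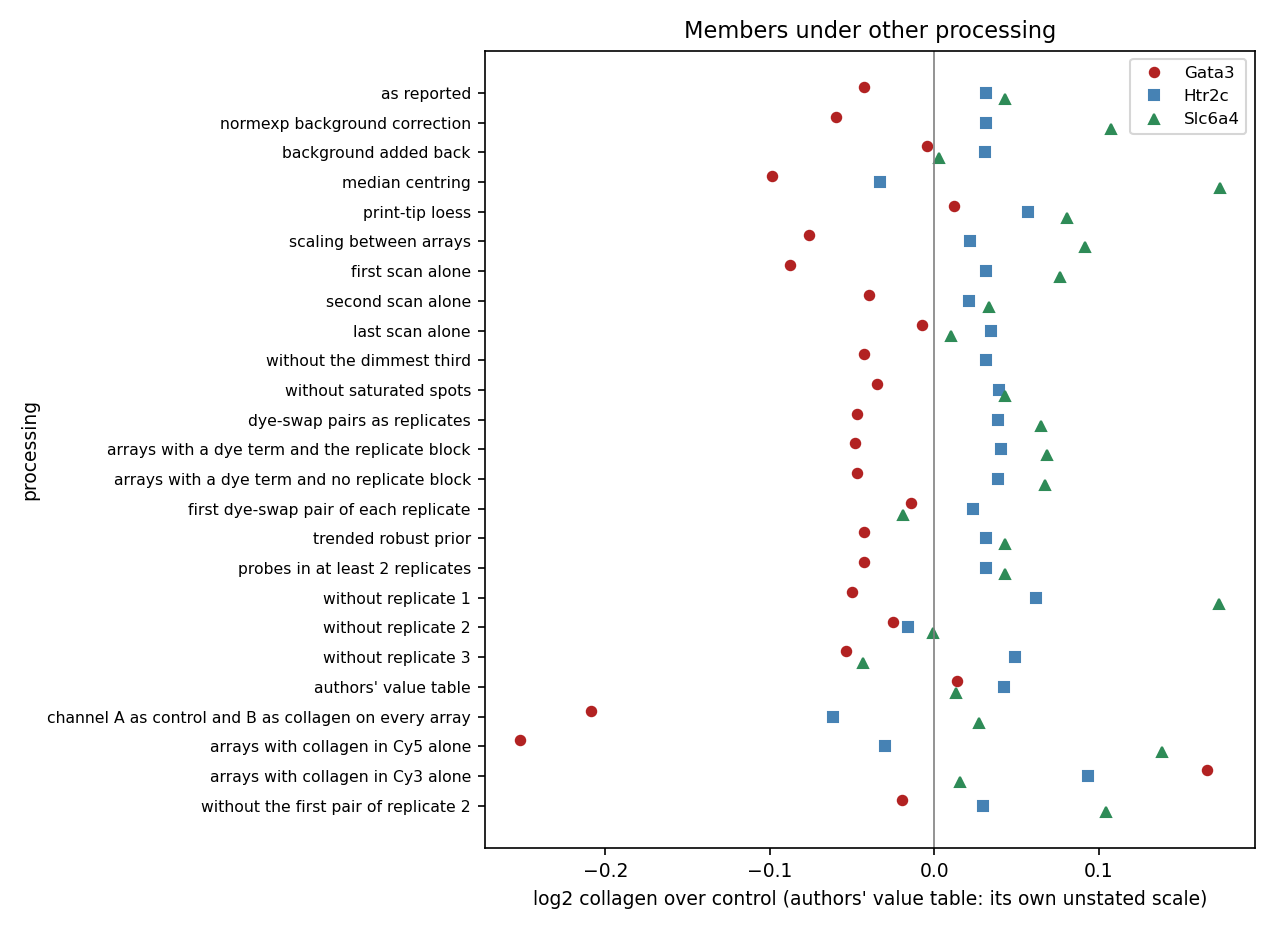
Mean log2 collagen over control (horizontal axis) of Gata3, Htr2c and Slc6a4 under each way of processing (vertical axis), with the value as reported in the top row and the authors' value table on its own unstated scale. All values lie between -0.25 and 0.17, and each gene crosses 0 under at least 1 alternative.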

How the data were processed

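The members and gene lists were chosen with earlier results of these data known. Per the file headers, the deposited scanner files give for each channel a background-corrected spot intensity, a background intensity and a flag, and for the spot a saturation factor, taken as a fraction (unsaturated share of the pixels). The sources used here name no software for them. In the authors' deposited value table each probe has a score per array, whose scale, log base, centring and direction are unstated (column medians -0.00862 to 0.00332). It served as an alternative only.

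Spots were put in the order of printing block, then row and column. In this order the value table correlated with channel B over A at 0.670 to 0.835 in size (by slide rows, at most 0.0966). The correlation was positive on the 5 arrays with collagen RNA in Cy5 and negative on the 5 with it in Cy3. The value table was therefore read as collagen over control and was not turned. A spot was used where both intensities were over 0 and no channel had an X, Y or Z flag. Log2 ratios were normalised by loess within each scan (limma 3.58.1, R 4.3.3, span 0.3, 4 iterations), averaged over scans, turned to collagen over control, then averaged over dye-swap pairs (consecutive slide numbers, both arrays needed) and replicates. Means were tested against 0 by lmFit and eBayes (two-sided), with Benjamini-Hochberg adjustment over 4139 probes. The intensities were already background-corrected and were used as they stand, with normexp as an alternative.  Of the probes, 9066 have 1 symbol, 12 several and 1002 none. For 8977 of the 9066 the gene identifier was found in the reference and its symbol there was used, whether or not it differed. The rule named the members, the serotonin list's genes measured in all 3 replicates and the 3 nearest probes per member. Marker genes and genes measured in fewer replicates were named after their values were seen. The number of arrays limits the precision. The fit was tested on simulated data.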

Additional observations from a re-analysis of the deposited data

Results flagged for a closer look

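Gata3 stood lowest on a replicate 2 array, the one with 2 scans and with collagen in Cy5, at -0.77, where the next of the 5 arrays of that orientation was at -0.20. It lay far from the others by a test of its gap against the range, applied to 6 sets of arrays. Chance marks about 1 in 20 single sets, so a mark somewhere among the 6 is more likely than that. The scans of this array gave -0.86 and -0.69. Its dye-swap partner stood at 0.48, so the pair's mean was -0.15. Without this pair, Gata3 stood at -0.019 (limma adjusted p = 0.957). The cause was not tested.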

How the results depend on the processing

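The 3 members and the serotonin list gave no call under any alternative run, but the signs of the members' means, all within their error, were not stable. The smallest adjusted p of a member was 0.432, for Gata3 with collagen RNA in Cy5 alone, and 0.340 with the letters read as RNA, where the value is that of channel B over A. Alternatives by dye orientation and without the first pair of replicate 2 were chosen after the data were seen. Gata3 turned to 0.012 with print-tip loess, 0.014 in the authors' value table and 0.17 with collagen RNA in Cy3 alone. Htr2c turned to -0.033 with median centring, -0.062 with the letters A for control and B for collagen throughout and -0.030 with collagen RNA in Cy5 alone, and, leaving out 1 replicate at a time, lay between -0.016 (without replicate 2) and 0.062. Slc6a4 turned to -0.019 with the first dye-swap pair of each replicate and ranged from -0.043 (without replicate 3) to 0.17 (without replicate 1), with -0.0010 without replicate 2. By mean brightness it is among the dimmest 33.3% of the tested probes, and it has no value without them. In 22 of 24 alternatives 0 probes changed. The count was 55 with the channel letters read as RNA and 13 with collagen RNA in Cy5 alone, settings in which the dye does not cancel. With the replicate number as a replicate block in an array-level fit, Gata3 stood at -0.048, Htr2c at 0.040 and Slc6a4 at 0.068, and 0 probes changed (consensus correlation -0.093), as without the block. Over the 5 dye-swap pairs, the correlation of the arrays' deviations in collagen over control within a pair was -0.36 to -0.028. The arrays of a pair thus did not deviate together in that ratio. On channel B over A the same correlations have the opposite sign.

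The 55 probes that differed between channels became 0 with normexp, 0 with median centring, 83 with between-array scaling, 13 from the first scan, 8 from the second, 96 with pairs as replicates, 330 with the replicate block, 392 without it, 90 with a trended robust prior, and 26 to 235 on leaving out replicate 2 or replicate 1. Of the members' channel ratios, median centring turned Gata3 to 0.13, Htr2c to 0.31 and Slc6a4 to -0.10. Slc6a4 also turned with background added back (-0.0043), print-tip loess (-0.028) and the first scan alone (-0.038), and lay between -0.035 and 0.080 without single replicates, where Htr2c lay between -0.14 and 0.0073. The cause was not tested. Slc6a4 had the lowest signal over background of the 3 members.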
